A study of Rattus norvegicus with 9 samples.

Results

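The chemokine CXCL12 and its 2 receptors, CXCR4 and ACKR3, are described here by the transcripts Cxcl12, Cxcr4 and Ackr3 in the rat adrenal medulla, 3 of 14217 genes named on the arrays (NCBI gene IDs 24772, 60628 and 84348). Their probe sets were taken by gene symbol, and the pair of receptors was selected by its opposite changes after stress, so the receptor differences below are descriptions without a test. RNA was measured on 9 oligonucleotide arrays with 3 arrays a group. Control rats were unstressed. The 1XIMO rats were immobilized once for 2 h, and the 6XIMO rats for 2 h daily on 6 days, with both medullae dissected after the last session. All groups were adult rats of 280 to 320 g. The labels and design text used here give no strain or sex and do not say whether an array holds 1 animal or a pool, so a p-value measures only the spread between these 9 samples. The organism field names the rat, while other fields name mouse or brain.

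CXCL12 is a chemokine secreted mainly by stromal and endothelial cells. CXCR4 signals through inhibitory G proteins when it binds CXCL12, and it guides migrating cells, among them leukocytes, blood stem cells and neural crest cells, the lineage that gives rise to chromaffin cells. ACKR3, earlier named CXCR7, binds the same chemokine but does not signal through G proteins in the classical way. It recruits arrestins and takes CXCL12 into the cell, which lowers the amount left for CXCR4, and it also binds CXCL11, adrenomedullin and opioid peptides.

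The windows from 250 bases before to 50 bases after the gene start are shown so that the starts of receptors that stood in opposite directions can be set side by side (RefSeq, build GRCr8; Cxcl12 chr4:152060531-152060830 on the plus strand, Cxcr4 chr13:42634239-42634538 on the minus strand, Ackr3 chr9:98247104-98247403 on the plus strand). Capitals mark TGACG, the core of cAMP elements, and TATAAA, the TATA box, each searched on both strands.
Cxcl12: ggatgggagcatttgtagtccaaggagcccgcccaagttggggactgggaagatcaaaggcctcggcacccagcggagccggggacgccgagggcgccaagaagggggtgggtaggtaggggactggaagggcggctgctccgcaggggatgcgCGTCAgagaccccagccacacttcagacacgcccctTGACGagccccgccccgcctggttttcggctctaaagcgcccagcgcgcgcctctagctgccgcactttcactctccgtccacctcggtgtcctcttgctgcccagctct
Cxcr4: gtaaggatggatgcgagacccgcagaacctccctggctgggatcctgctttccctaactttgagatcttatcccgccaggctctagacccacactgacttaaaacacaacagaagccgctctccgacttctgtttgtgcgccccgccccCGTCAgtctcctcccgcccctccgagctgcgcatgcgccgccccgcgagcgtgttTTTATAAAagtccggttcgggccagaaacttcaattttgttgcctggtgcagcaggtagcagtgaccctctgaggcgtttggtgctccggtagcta
Ackr3: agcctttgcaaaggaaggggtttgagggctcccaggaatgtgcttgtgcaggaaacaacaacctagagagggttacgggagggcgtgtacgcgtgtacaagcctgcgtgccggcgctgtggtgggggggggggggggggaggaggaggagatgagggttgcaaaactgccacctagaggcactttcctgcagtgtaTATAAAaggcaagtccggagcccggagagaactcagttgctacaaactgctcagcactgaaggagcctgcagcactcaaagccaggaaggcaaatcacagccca
The window of Ackr3 held TATAAA starting 54 bases before the gene start and no TGACG. That of Cxcr4 held TATAAA 44 bases before the start, overlapping a match on the opposite strand, and CGTCA, the opposite-strand reading of TGACG, 101 bases before it. The Cxcl12 window held TGACG 60 and CGTCA 96 bases before the start and no TATAAA. Of 33469 rat promoter windows, 21.2% held TGACG and 14.2% TATAAA, the latter searched for after the windows had been seen. TGANTCA of AP-1 (7.33% of all windows), ACGTG of the hypoxia element (19.3%), AAGGTCA of the Nr4a factors (4.61%) and AGAACA of the glucocorticoid receptor (20.7%) had no match in the 3 windows. CG dinucleotides numbered 9 for Ackr3, 20 for Cxcr4 and 23 for Cxcl12, against a median of 7 over all windows.

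The 6XIMO arrays stood apart from the others in measures of RNA quality. The actin 3′/5′ signal ratio, which grows as labelled RNA becomes incomplete, was 231, 6.11 and 8.87 in 6XIMO replicates 1, 2 and 3 and 1.45 to 2.15 in the other 6 arrays. 6XIMO replicate 1 correlated with the other arrays at no more than 0.734 across genes, against 0.844 to 0.984 among the other 8. Defining markers of chromaffin cells were present: in Control, Th, which starts the making of catecholamines, had a log2 level of 15.92 ± 0.31 and Pnmt, which makes adrenaline, 15.47 ± 0.37 (SD, n = 3). Summed intensities in Control were 349017 to 523768 for 9 chromaffin markers and 400367 to 578950 for 9 markers of adrenal cortex, which were thus present as well. In bulk tissue, fewer cells of a type and less RNA per cell cannot be told apart.

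After stress the 3 transcripts parted: Ackr3 stood higher than Control in all 6 stressed arrays, Cxcr4 stood lower in all 6, and Cxcl12 did not pass the test in any comparison. For Cxcl12, the ligand, the brightest of 3 probe sets (1369633_at) read intensities of 2791, 5308 and 3269 in Control, 3562, 3926 and 4463 in 1XIMO, and 3048, 3195 and 2553 in 6XIMO. The Control arrays spanned the values of nearly all stressed arrays, while the 6XIMO arrays lay below those of 1XIMO without overlap, as did 18.0% of all genes. As log2(intensity + 16), the scale of all levels and differences here, the means were 11.84 ± 0.48 in Control, 11.96 ± 0.16 in 1XIMO and 11.52 ± 0.17 in 6XIMO (SD, n = 3 each). By limma with Benjamini-Hochberg adjustment, the difference from Control was 0.12 ± 0.25 (SE) in 1XIMO (adjusted p = 0.89, 95% interval -0.44 to 0.68). It was -0.32 ± 0.25 in 6XIMO (adjusted p = 0.38, -0.88 to 0.24), and that between 6XIMO and 1XIMO was -0.44 ± 0.25 (adjusted p = 0.278, -1.003 to 0.12). Changes of up to the bounds of these intervals could have gone unseen. With arrays weighted by their quality, both comparisons of 6XIMO passed by limma, at -0.50 against Control (adjusted p = 0.0417) and -0.60 against 1XIMO (adjusted p = 0.0148). In that fit 59.1% and 49.9% of all genes passed in these comparisons. Over all settings tried the adjusted p ranged from 0.0417 to 0.903 and from 0.0148 to 0.73.

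The second Cxcl12 probe set (1388583_at) read 955 to 1766 in Control, 1008 to 1498 in 1XIMO and 786 to 1573 in 6XIMO, with overlap in each comparison. The dimmest (1387655_at) had a mean log2 level of 8.85, below the filter at 8.93, and was not tested. Its intensities were 458 to 645 in Control and 390 to 678 in 1XIMO. In 6XIMO it read 980, 369 and 83.1, so its spread there exceeded that of the other groups. Thus 6 of the 7 probe sets of the 3 genes passed the filter on dim values.

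**Figure D1:**
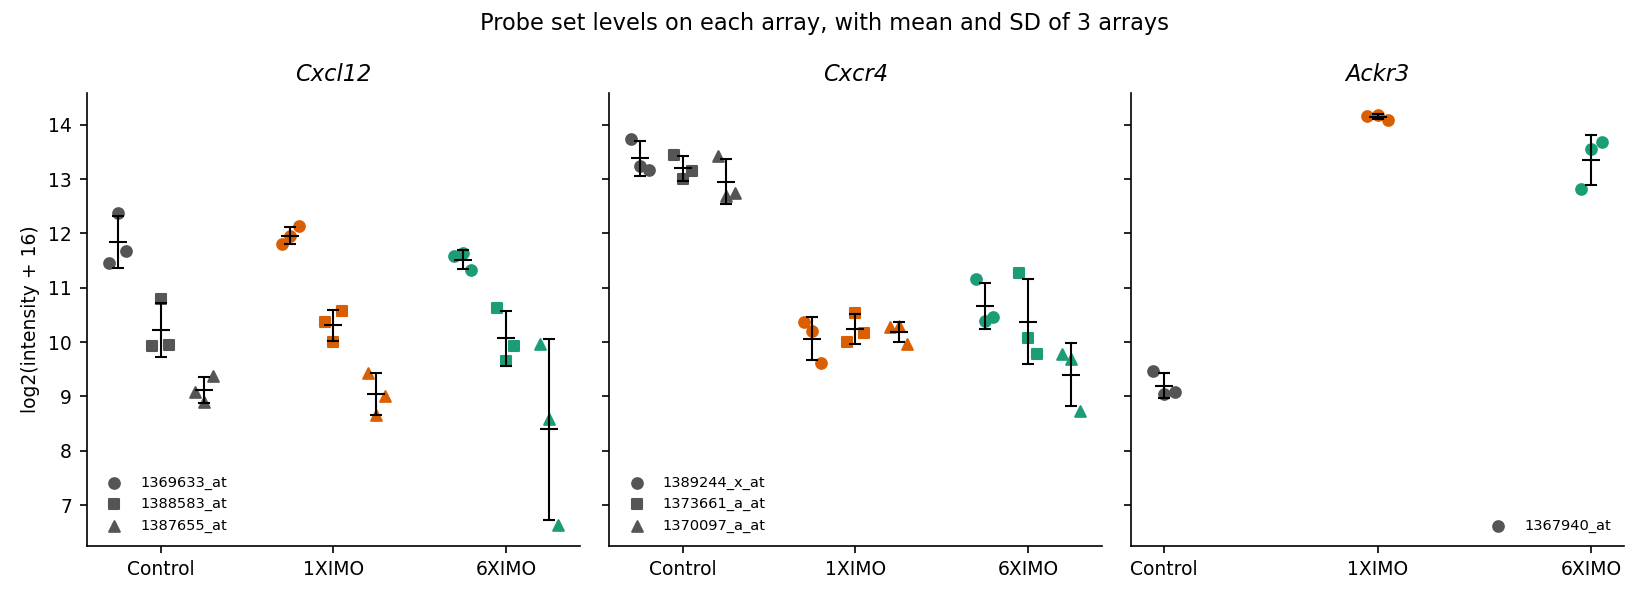
Levels as log2(intensity + 16) of the 7 probe sets of Cxcl12, Cxcr4 and Ackr3 in the 3 groups, where each point is 1 array, the horizontal tick is the mean and the bar the SD of 3 arrays. Ackr3 lies at a mean of 9.20 in Control and 14.15 in 1XIMO, the 3 Cxcr4 probe sets lie above 12.6 in Control and below 11.3 in all stressed arrays, and the Cxcl12 probe sets overlap between Control and both stressed groups.

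Cxcr4, the signalling receptor, was high in Control and lower in each of the 6 stressed arrays by each of its 3 probe sets. The brightest (1389244_x_at), which stands for the gene in the fit, read 13703, 9635 and 9151 in Control, 1307, 1159 and 767 in 1XIMO, and 2268, 1333 and 1388 in 6XIMO. The lowest Control array was several times above the highest stressed array, and the 6XIMO arrays lay just above those of 1XIMO. Mean log2 levels were 13.38 ± 0.32 in Control, 10.06 ± 0.40 in 1XIMO and 10.67 ± 0.42 in 6XIMO (SD, n = 3 each). The difference from Control was -3.32 ± 0.29 (SE) in 1XIMO, a 9.99-fold lower value, and -2.71 ± 0.29 in 6XIMO, 6.55-fold lower. It was the 2nd lowest of 10633 genes in 1XIMO and the 52nd lowest in 6XIMO.

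The other probe sets of Cxcr4 gave like differences in 1XIMO and disagreed over what came after it. The probe set 1373661_a_at, built on the same sequence record as the brightest, read 11153, 8150 and 9101 in Control, 1004, 1477 and 1141 in 1XIMO, and 2452, 1067 and 863 in 6XIMO. Its log2 difference from Control was -2.96 ± 0.37 in 1XIMO and -2.82 ± 0.37 in 6XIMO. The third, 1370097_a_at, built on another record, read 10985, 6559 and 6838 in Control, 1226, 1237 and 988 in 1XIMO, and 865, 809 and 409 in 6XIMO. All stressed arrays lay below all Control arrays for both. For 1370097_a_at the difference was -2.77 ± 0.33 in 1XIMO and -3.55 ± 0.33 in 6XIMO. Between 6XIMO and 1XIMO the brightest probe set was 0.61 higher without overlap (as 16.8% of all genes were), 1373661_a_at was 0.14 higher with overlap, and 1370097_a_at differed by -0.78 without overlap. The 0.61 of the brightest became 0.37 without 6XIMO replicate 1 and 0.39 without 1XIMO replicate 3. With all 3 averaged, the difference between the stressed groups was -0.0109, so the order of 1XIMO and 6XIMO is not settled for this receptor. No annotation used here places these probe sets along the transcript, and the part of the 3′/5′ ratios in their disagreement was not tested.

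Of all genes, 30.5% were lower in 1XIMO than in Control without overlap, and 27.3% lower in 6XIMO than in Control. Within arrays the brightest Cxcr4 probe set stood at the 91.6 to 95.6 percentile in Control, at 48.4 to 57.3 in 1XIMO and at 63.4 to 64.8 in 6XIMO. Cxcr4 thus stood among the brightest probe sets of each Control array and near the middle of each stressed array. The median log2 difference of all genes was -0.13 in 1XIMO and -0.23 in 6XIMO, small beside those of either receptor.

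Ackr3, the scavenging receptor, was low in Control and high in all stressed arrays. Its 1 probe set (1367940_at) read intensities of 692, 512 and 525 in Control replicates 1 to 3, 18350, 18651 and 17449 in 1XIMO, and 7220, 12048 and 13084 in 6XIMO. No stressed array came near the Control range, and the 1XIMO arrays all lay above the 6XIMO arrays. Mean log2 levels were 9.20 ± 0.23 in Control, 14.15 ± 0.05 in 1XIMO and 13.35 ± 0.46 in 6XIMO (SD, n = 3 each). The difference from Control was 4.95 ± 0.24 (SE) in 1XIMO, about 30.9-fold, and 4.15 ± 0.24 in 6XIMO, about 17.8-fold. The Control levels of 9.05 to 9.47 lay just above the filter at 8.93. The constant of 16 and any background left in these dim values lower the folds, by an amount that is unknown for the background. Ackr3 had the 10th highest difference of 10633 genes tested in 1XIMO and the 22nd in 6XIMO.

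Ranks of Ackr3 within each array, which do not depend on how an array was scaled, gave the same order. Ackr3 stood at the 37.1 to 40.0 percentile of all non-control probe sets in Control, at 96.4 to 96.6 in 1XIMO and at 91.7 to 94.0 in 6XIMO. The step down from 1XIMO to 6XIMO was -0.80 ± 0.24 on the log2 scale. Without 6XIMO replicate 1, the array with the actin ratio of 231 and the lowest Ackr3 value of its group, it was -0.53, and the difference of 6XIMO from Control was 4.42. Of all genes, 13.8% were higher in 1XIMO than in Control without overlap between the groups, 15.6% higher in 6XIMO than in Control and 18.0% lower in 6XIMO than in 1XIMO. For the receptors, which were chosen by these contrasts, the shares are given as background only.

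**Figure D2:**
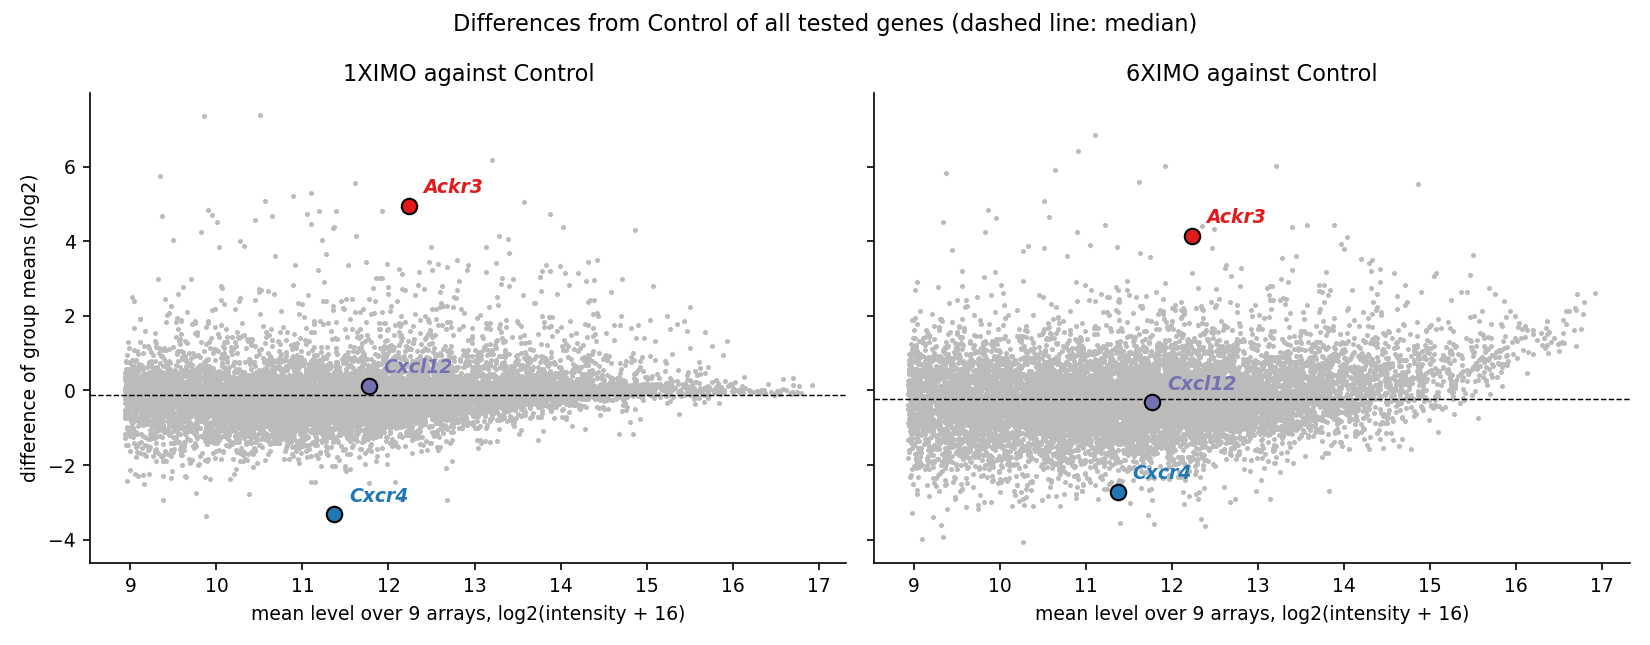
Difference of group means on the log2 scale against the mean level over 9 arrays for the 10633 genes tested (grey points), with 1XIMO against Control on the left and 6XIMO against Control on the right; the dashed line is the median of all genes. Ackr3 lies at 4.95 and 4.15, Cxcr4 at -3.32 and -2.71, and Cxcl12 at 0.12 and -0.32, inside the grey cloud.

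Markers of cells that carry these genes were compared between the same groups, against 10.2% of all genes past the threshold in 1XIMO and 25.9% in 6XIMO (10.0% higher and 15.9% lower). Of 11 leukocyte markers tested, whose cells bear CXCR4, 0 rose and 0 fell in 1XIMO against Control by limma (0 also at an unadjusted p under 0.05), and none was at 0 on any array. Their summed intensity was 86222 to 102228 in Control and 82941 to 98907 in 1XIMO, and the groups overlapped. In 6XIMO the sums were 36323 to 106526, with the lowest in replicate 1. There 2 of the 11 fell, Csf1r, a growth factor receptor of macrophages, by 1.67 and Aif1, a macrophage protein, by 0.84, a share near that of all genes. Of 10 endothelium markers 0 passed in 1XIMO (3 at an unadjusted p under 0.05), with sums of 69007 to 77954 in Control and 66896 to 74359 in 1XIMO. In 6XIMO 2 of them fell, Kdr, a VEGF receptor, by 0.79 and Tie1, an endothelial kinase, by 0.64, again near the share of all genes, and the sums were 50999 to 66802, below those of Control.

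For fibroblasts and pericytes, sources of CXCL12, 0 of 10 markers passed in 1XIMO (1 at an unadjusted p under 0.05) and the sums overlapped, at 65362 to 91690 in Control and 73101 to 97279 in 1XIMO. In 6XIMO Pdgfra, a growth factor receptor of fibroblasts, rose by 1.06 and Cspg4, a pericyte proteoglycan, fell by 1.15, 2 of 10 against 25.9% of all genes, with sums of 41979 to 155923. The 6 marker genes named here were singled out after their values were seen. All 6 calls were lost without Control replicate 1 and without Control replicate 3, with adjusted p of up to 0.144 in the 9 fits that left out 1 array. Without 6XIMO replicate 1 the share of all genes past the threshold was 49.6% in 6XIMO and 32.2% in 1XIMO. Of the markers, 4 leukocyte markers then fell in 6XIMO, and 4 endothelium and 4 fibroblast and pericyte markers passed. None of these was a larger share than the 49.6% of all genes, which counts both directions together. The share of all genes that fell is not given for that fit. In 1XIMO 4 endothelium markers, 1 fibroblast and pericyte marker and 0 leukocyte markers then passed.

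In 6XIMO 4 of 9 chromaffin and 7 of 9 cortex markers rose, against 10.0% of all genes, and 0 passed as lower. Among those that did not pass, Slc18a1, a vesicular monoamine transporter, differed by -1.12 and Cyp11b1, which makes corticosterone, by -1.15. Log2 levels of Slc18a1 were 10.46, 14.14 and 13.74 in 6XIMO replicates 1 to 3, against a Control mean of 13.90. Those of Cyp11b1 were 10.99, 15.04 and 15.60, against 15.02, so only replicate 1 lay far below Control for either gene. Summed intensities in 6XIMO were 1122057 to 2425295 for chromaffin and 1189762 to 2125887 for cortex markers, each above all Control arrays. Without 6XIMO replicate 1, 7 chromaffin markers passed, and without Control replicate 2 or 3 alone, 4 cortex markers. Of the chromaffin enzymes Dbh, which makes noradrenaline, rose by 2.17, but differed by 0.30 under quantile normalization (adjusted p = 0.171 by limma). Pnmt rose by 1.62, but differed by 0.45 under quantile normalization (adjusted p = 0.144 by limma). With 6XIMO replicate 1 left out as well, Pnmt differed by 0.51 (adjusted p = 0.0137 by limma). The other chromaffin markers that rose, the cortex markers and the sums were not read under quantile normalization. In 1XIMO 0 of 9 chromaffin markers passed (0 at an unadjusted p under 0.05), with Th at 0.18, and 1 of 9 cortex markers rose, the lipoprotein receptor Scarb1 by 1.86, a call lost in 4 of the 9 fits that left out 1 array (adjusted p up to 0.102), among them that without Control replicate 2. Of 7 Schwann cell and glia markers 1 rose in 1XIMO, Egr2, a zinc finger factor, by 1.48, a call lost in 7 of 9 fits and kept only without 6XIMO replicate 1 or 3 (adjusted p up to 0.16 by limma). In 6XIMO Egr2 rose by 1.45 and S100b, a calcium-binding protein of glia, fell by 0.77, 2 of 7 against 25.9% of all genes. Both calls were lost without any 1 Control array, and that of S100b in 6 of 9 fits. Slc18a1, Cyp11b1, Scarb1, Egr2 and S100b were also singled out after their values were seen. Of 3 erythrocyte and 3 adipocyte markers 0 passed in either group by limma (0 at an unadjusted p under 0.05). No tested marker of these lists was at 0 on any array. Markers left out by the filter on dim values were not looked at for this. The part of all these markers in the values of the 3 genes was not tested.

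Genes around the axis were read from 5 lists of 112 genes, of which 73 were tested. In 1XIMO 3 rose and 3 fell, 8.22% of those tested. Of all genes 10.2% passed, 4.47% higher and 5.71% lower, so the share was near the background. Mmp14, a membrane protease that can cleave CXCL12, had log2 levels of 14.44 ± 0.03 in Control and 13.08 ± 0.21 in 1XIMO and fell by 1.37 ± 0.19 (SE, adjusted p = 0.00239 by limma). All Control arrays read 14.42 to 14.48 and no 1XIMO array passed 13.27. It was the 1 member of 10 in the list of other ligands and processing enzymes that passed. Penk, the precursor of opioid peptides that ACKR3 takes up, had a difference of 2.34 (adjusted p = 0.0657), and Mif, another ligand of CXCR4, one of -0.19.

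Receptor coupling and trafficking held 16 tested genes, the G proteins, arrestins, receptor kinases, ubiquitin and sorting proteins that carry or end the signal. Of these 0 rose and 1 fell in 1XIMO, Rgs3, which shortens G protein signals, by 1.14 ± 0.22 (adjusted p = 0.012 by limma), while the median of the list was -0.20. Without Control replicate 2 or 1XIMO replicate 3, Rgs3 no longer passed (adjusted p up to 0.0607, with 0.000135 to 0.224 over all settings). Downstream signalling had 1 of 29 past the threshold, Bcar1, a docking protein of migrating cells, at 1.09 ± 0.25 (adjusted p = 0.0229), a call lost without any 1 of the Control or 1XIMO arrays (adjusted p up to 0.103). Of 4 other chemokine receptors bright enough to test, 0 passed (1 at an unadjusted p under 0.05), among them Cxcr3, which shares CXCL11 with ACKR3, at 0.07.

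Transcription factors and oxygen sensors reported to act on the 3 genes held 14 tested members, with 2 up and 1 down in 1XIMO. Nfkb1, a subunit of NF-κB, had log2 levels of 12.61, 12.63 and 12.57 in Control replicates 1 to 3 and 14.54, 14.24 and 14.20 in 1XIMO, and rose by 1.72 ± 0.23 (SE, adjusted p = 0.00149 by limma). Foxo1, a forkhead factor restrained by AKT, fell by 1.52 ± 0.22 (adjusted p = 0.00305). Klf2, a factor of resting endothelium and lymphocytes, rose by 1.00 ± 0.22 (adjusted p = 0.0209), a call lost in 5 of 9 fits, those without any 1 Control array and without 1XIMO replicate 2 or 3. Centring each array on its median moved the median of all genes from -0.13 to -0.00287. Then 0 of the 73 passed (9 at an unadjusted p under 0.05 by limma), against 2.06% of all genes. The count over the 5 lists was 3 without Control replicate 2 (4.39% of all genes), 3 without 1XIMO replicate 3 (3.92%) and 20 without 6XIMO replicate 1 (32.2%), which enters the shared spread. Same-numbered Control and 1XIMO arrays deviated together, and with the replicate number as a block over these 6 arrays alone 28 of the 73 passed, the 6 genes above among them, as did 40.2% of all genes. Cxcl12 had an adjusted p of 0.628 by limma in that fit.

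In 6XIMO 6 members of the 5 lists rose and 9 fell, 20.5% of those tested. Of all genes 25.9% passed, 10.0% higher and 15.9% lower. Mmp14 fell by 2.18 ± 0.19 (SE, adjusted p = 0.000184 by limma), and by 1.26 with all its probe sets averaged (adjusted p = 0.0243). Rgs3 fell by 1.27 ± 0.22 (adjusted p = 0.00364), although by 0.26 with all its probe sets averaged (adjusted p = 0.671, in a range of 8.5e-06 to 0.671). Plcb3, a phospholipase downstream of the receptor, fell by 1.07 ± 0.24. Nfkb1 rose by 1.10 ± 0.23 and Yy1, a zinc finger factor reported to repress human CXCR4, by 1.09 ± 0.17 (adjusted p = 0.00246). These 5 kept their calls in each of 9 fits that left out 1 array. With each array centred on its median 4 of the 73 passed, against 6.40% of all genes. Mmp14 was among them (adjusted p up to 0.0358 by limma over all settings), but not the other 4 named here.

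The other calls in 6XIMO were each lost in at least 1 of those 9 fits. Penk rose by 2.68 ± 0.70 (SE, adjusted p = 0.0208 by limma), a call lost without 6XIMO replicate 2 or 3 (adjusted p up to 0.058), and by 1.78 without Control replicate 2. Adm, the precursor of adrenomedullin, fell by 1.33 ± 0.42 (adjusted p = 0.044), a call kept only without 6XIMO replicate 1, where it fell by 0.76, or without 6XIMO replicate 2. Pik3ca, a subunit of PI3 kinase, rose by 1.30 ± 0.30, with an adjusted p of 0.052 once Control replicate 3 was left out and a difference of 0.46 with all its probe sets averaged (adjusted p = 0.0772 by limma). Arnt, the partner of the hypoxia factors, fell by 1.88 ± 0.49, a call lost without Control replicate 1 or 3 or 6XIMO replicate 3. Egln1, which marks these factors for decay, fell by 0.61 ± 0.17, a call lost without any 1 Control array and without 6XIMO replicate 2 or 3. Bcar1 rose by 0.88 and Ccrl2, a chemokine-binding receptor that does not signal, by 1.29. The kinases Ptk2b and Rock2 fell by 1.45 and 1.53 and the adaptor Crkl by 1.11. The brightest probe set was chosen anew in each fit. Without Control replicate 2 or 3 or 1XIMO replicate 2 or 3, another Rock2 probe set stood for the gene. Its difference was -0.58 without Control replicate 2, -0.42 without Control replicate 3 and -0.41 without 1XIMO replicate 2 or 3. So these values show a disagreement between probe sets. The difference of the first Rock2 probe set was -0.90 without 6XIMO replicate 1. With quantile normalization the difference of Rock2 was -0.25. That of Ptk2b was -0.97 without 6XIMO replicate 1. The calls of Bcar1, Ccrl2, Ptk2b, Rock2 and Crkl were lost without Control replicate 1, without 1XIMO replicate 3 and in further fits, with adjusted p of up to 0.317. The count over the lists was 7 without Control replicate 1 or 3 (16.8% and 13.5% of all genes), 9 without 1XIMO replicate 3 (20.2%) and 36 without 6XIMO replicate 1, where 49.6% of all genes passed, so that the share of the lists was near that of all genes there too.

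**Figure D3:**
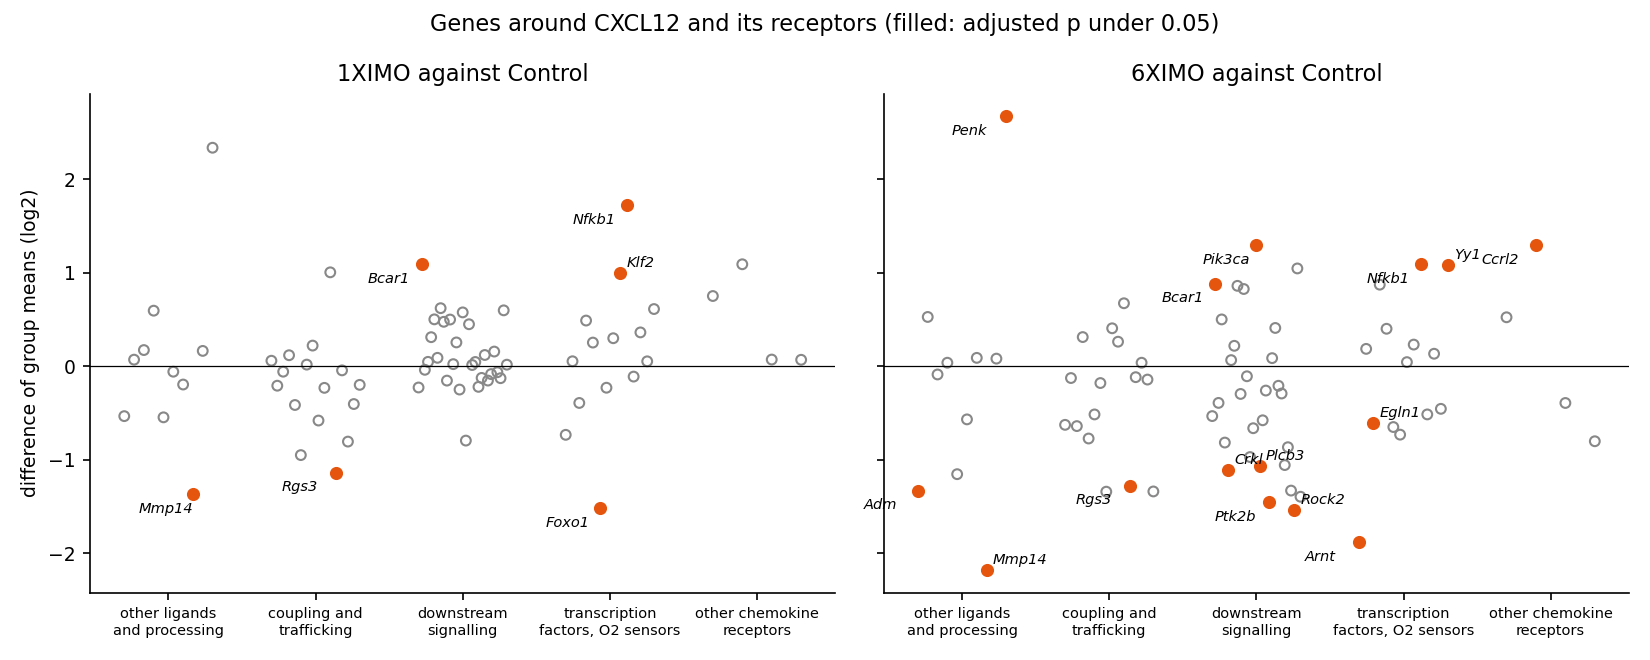
Difference of group means from Control on the log2 scale for the 73 tested genes of 5 lists, 1XIMO on the left and 6XIMO on the right, where filled named points passed an adjusted p under 0.05 and open points did not. In 1XIMO 6 genes are filled and in 6XIMO 15, and most open points lie within 1 unit of 0.

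Between 6XIMO and 1XIMO, 1 list member rose and 2 fell, 4.11% of those tested. Of all genes 10.8% passed, 5.79% higher and 5.04% lower. Crkl, an adaptor protein, fell by 1.62 ± 0.36 (adjusted p = 0.0234 by limma), Mmp14 fell by 0.81 ± 0.19 (adjusted p = 0.03), against a difference of 0.20 with all its probe sets averaged, and Foxo1 rose by 0.87 ± 0.22 (adjusted p = 0.0389). The count was 1 without any 1 Control array (5.86% to 7.36% of all genes). It was 0 without any 1 1XIMO array by limma (12 to 15 at an unadjusted p under 0.05), where 0.367% to 3.92% of all genes passed. It was 26 without 6XIMO replicate 1 (33.3% of all genes) and 5 without 6XIMO replicate 2 (9.54%).

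Genes with the most similar pattern were ranked by the root mean square distance, over 9 arrays, of the log2 level minus the Control mean. Nearest to Ackr3 among 10632 other genes lay Maff, a small Maf transcription factor (distance 0.39), Scx, scleraxis, a factor of tendon cells (0.39), Nfil3, a leucine zipper repressor (0.41), Calca, the gene of calcitonin and CGRP (0.48), and Giot1, a zinc finger protein (0.49). Their differences from Control were 4.37 to 5.07 in 1XIMO and 3.89 to 4.66 in 6XIMO. Nearest to Cxcr4 lay Sbk1, a kinase (0.45), Smtnl2, a smoothelin-like protein (0.61), Macir (0.68), Shpk, a sugar kinase (0.68), and Arhgef40 (0.75), with differences of -3.38 to -2.46 in 1XIMO and -3.18 to -1.87 in 6XIMO. Both sets were picked by this distance over the same arrays, so differences near those of the receptors follow from the choice. The distances of both sets overlapped. Without 6XIMO replicate 1, 4 of the 5 stayed among the nearest 5 for each receptor, with Tmem86a (0.44) then first for Cxcr4 and Scx (0.22) first for Ackr3.

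**Figure D4:**
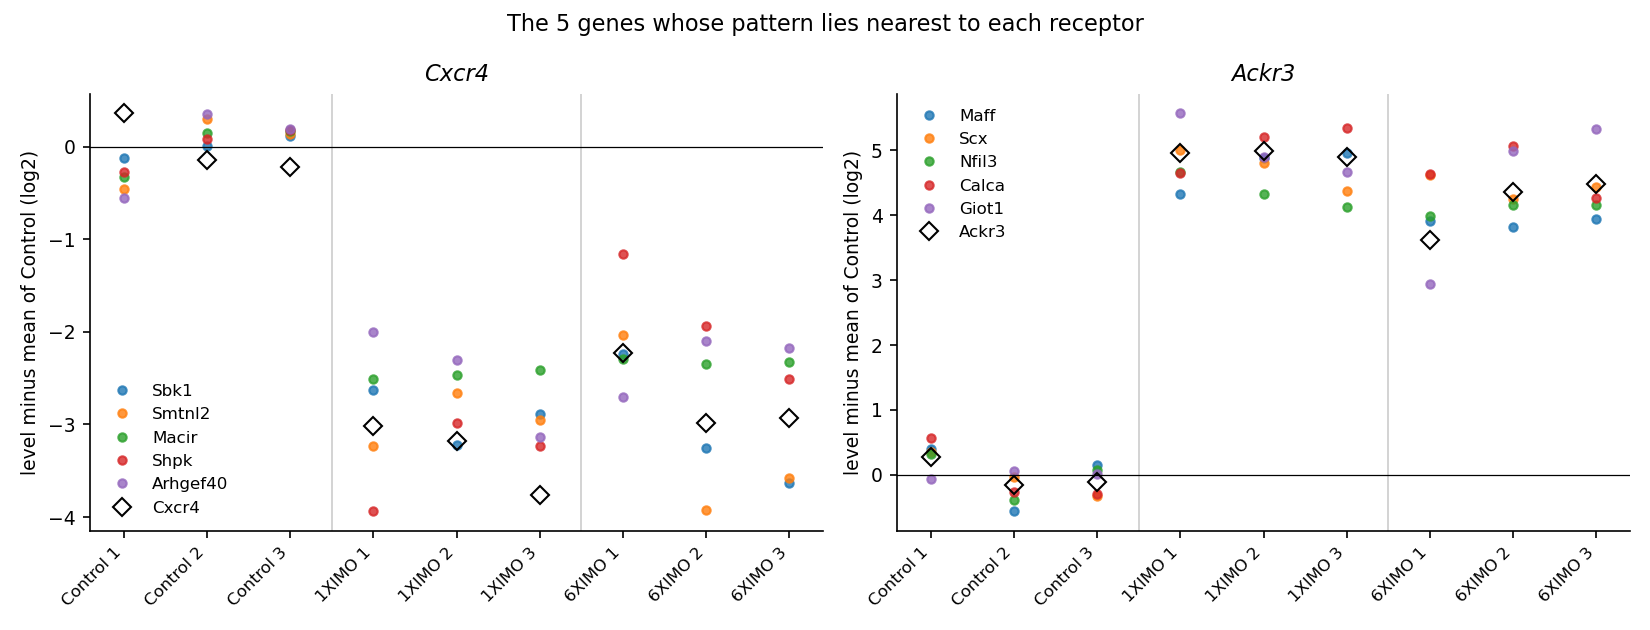
Log2 level minus the mean of Control on each of the 9 arrays for Cxcr4 (left) and Ackr3 (right), shown as open diamonds, and for the 5 genes nearest to each, shown as coloured points. The genes nearest to Ackr3 lie at mean differences of 4.37 to 5.07 in 1XIMO, and those nearest to Cxcr4 at -3.38 to -2.46.

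Over 21 alternative settings the difference of Ackr3 from Control stayed between 4.84 and 5.13 in 1XIMO and between 3.99 and 4.51 in 6XIMO. That of Cxcr4, read by its brightest probe set or the mean of all, stayed between -3.48 and -3.02 in 1XIMO and between -3.03 and -2.53 in 6XIMO. Its other probe sets on their own lay partly outside these ranges, at -2.96 and -2.77 in 1XIMO and -2.82 and -3.55 in 6XIMO. Cxcl12 ranged from -0.07 to 0.39 in 1XIMO, where it lay below 0 only without Control replicate 1 and was highest without Control replicate 2, and from -0.51 to -0.05 in 6XIMO.

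**Figure D5:**
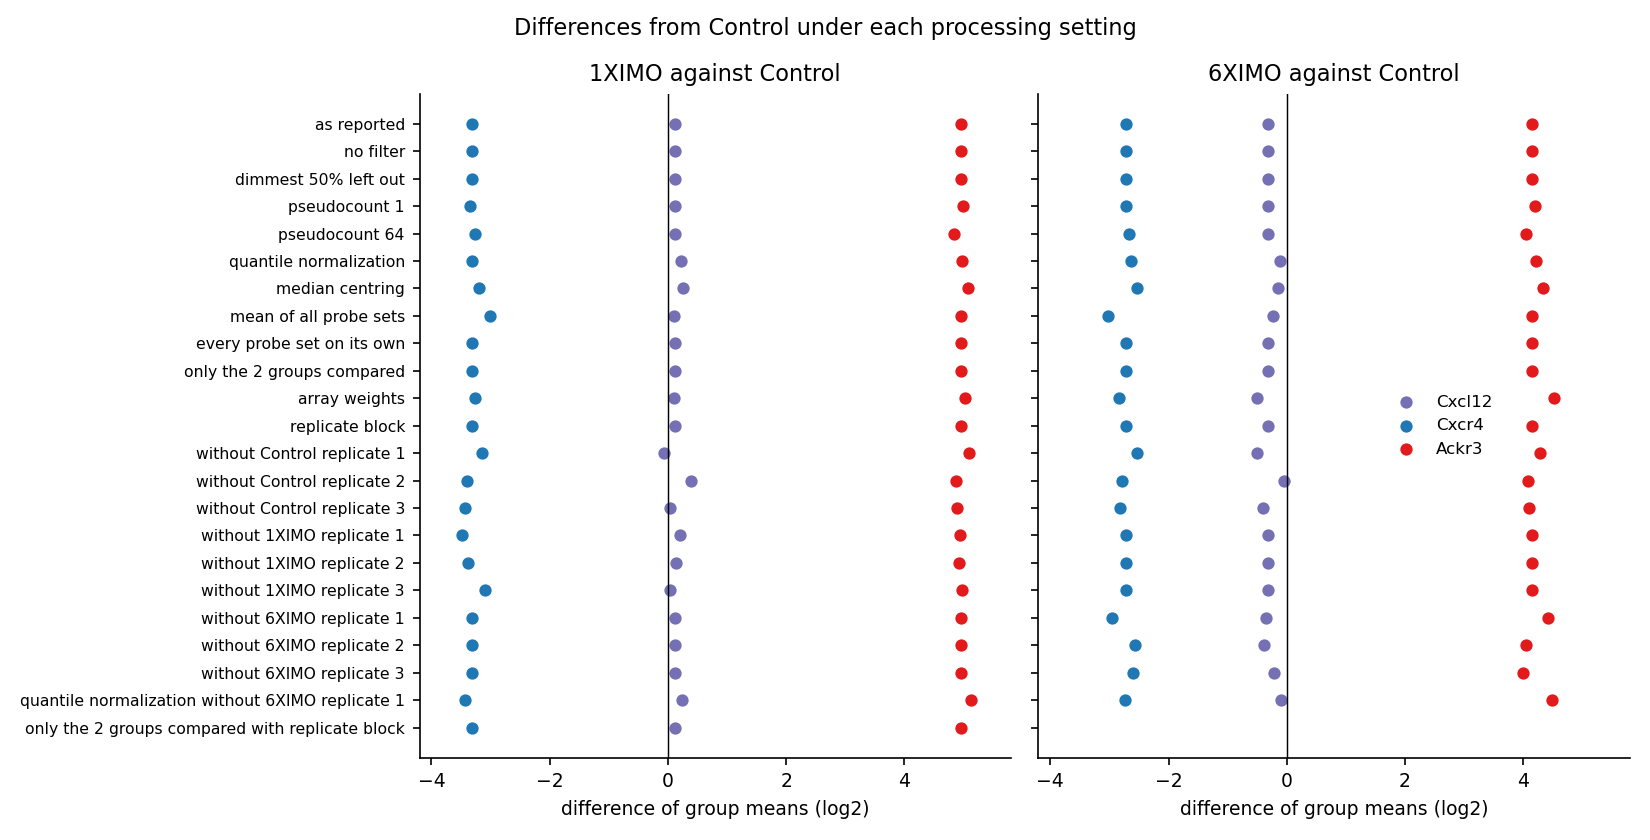
Difference from Control on the log2 scale of Cxcl12, Cxcr4 and Ackr3 under each processing setting (rows, with the reported one on top), 1XIMO on the left and 6XIMO on the right. Each point is 1 fit, and the last setting, added after seeing the data, exists for 1XIMO only; Ackr3 stays at 3.99 or more and Cxcr4 at -2.53 or less, while Cxcl12 stays between -0.51 and 0.39.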

How the data were processed

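The deposited table holds 1 linear intensity per probe set and array, and per the labels the manufacturer labelled and ran the arrays. The values show that the authors deposited intensities scaled per array, since the mean with 2% of values trimmed at each end was 2500.6 to 2501. No source used here names the probe summary, the background step or the scaling target. The number of arrays limits the precision.

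Of 31099 probe sets, 57 are controls, and the platform annotation gave 1 symbol to 20826, several to 436 and none to 9780. Single-symbol probe sets were taken as log2(intensity + 16), the dimmest 30% were left out, and the brightest stood for each of 10633 genes. limma 3.58.1 in R 4.3.3 (lmFit, eBayes with trend) fitted all 9 arrays together with 6 residual degrees of freedom, two-sided, with Benjamini-Hochberg adjustment and a threshold of 0.05. The script was tested on simulated data.

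Members and lists were chosen with earlier results of these data known. Named genes were all member probe sets, Th, Dbh and Pnmt, per list and comparison up to 6 passing genes with the largest change, and the 5 nearest to each receptor. Penk, Mif and Cxcr3 in 1XIMO, which did not pass, were named outside this rule, as were the marker genes singled out above. The marker lists with arrays left out were added after seeing the data. Alternatives were other filters, constants, normalizations, probe set choices, fits, array weights, a replicate block and leaving out arrays. Deviations of same-numbered arrays from their group means correlated at 0.242 to 0.521 between Control and 1XIMO, in each of 3 pairs, which were therefore also fitted as pairs, and at 0.029 to 0.150 in the 6 pairs with 6XIMO. No label says what a number shares.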

Additional observations from a re-analysis of the deposited data

Results flagged for a closer look

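Among the named genes, 5 differed between 6XIMO and 1XIMO, which compares the responses to 6 sessions and to 1, by limma with Benjamini-Hochberg adjustment. Mmp14 fell by 0.81 (adjusted p = 0.03), with a difference of 0.20 with all its probe sets averaged. Crkl fell by 1.62 (adjusted p = 0.0234). Foxo1 rose by 0.87 (adjusted p = 0.0389), kept in 2 of 9 fits that left out 1 array. Dbh, which makes noradrenaline, rose by 2.02 (adjusted p = 0.0254) and Pnmt by 1.27 (adjusted p = 0.0402), with 0.08 for Dbh and -0.0039 for Pnmt under quantile normalization. Pnmt kept its call in 1 and Mmp14 in 2 of the 9 fits, and Crkl and Dbh in 6. The 6XIMO arrays carried the actin 3′/5′ ratios of 6.11 to 231, and the part of these ratios in the 5 differences was not tested.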

How the results depend on the processing

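Of the receptor differences, that of Ackr3 between 6XIMO and Control moved beyond the replicate SD with array weights (4.51) and with quantile normalization without 6XIMO replicate 1 (4.49). That of Cxcr4 between 6XIMO and 1XIMO turned to -0.0109 with the mean of all probe sets. Cxcl12 passed with array weights, at -0.50 against Control and -0.60 against 1XIMO in 6XIMO, where 59.1% and 49.9% of all genes passed. Mmp14 between 6XIMO and 1XIMO turned to 0.20 with all probe sets averaged and Pnmt to -0.0039 with quantile normalization. The count of list members past the threshold, 6 in 1XIMO, 15 in 6XIMO and 3 between them, was 0, 4 and 0 with median centring (9, 13 and 5 at an unadjusted p under 0.05 by limma), 17, 6 and 0 with only the 2 groups compared (24, 19 and 12 unadjusted), 27, 44 and 38 with array weights, and 24, 23 and 14 with quantile normalization without 6XIMO replicate 1. Between 6XIMO and 1XIMO the count was 6 with the mean of all probe sets (10.5% of all genes) and 6 with every probe set on its own (13.1%). Leaving out 1 array gave 3 to 20, 7 to 36 and 0 to 26, with the highest values without 6XIMO replicate 1. The share of all genes in those fits was 3.57% to 32.2%, 13.5% to 49.6% and 0.367% to 33.3%. The share of all genes past the threshold ranged over the settings from 2.06% to 41.4% in 1XIMO, 6.40% to 59.1% in 6XIMO and 0.0282% to 49.9% between them. The causes were not tested. With the replicate block over all 9 arrays the list counts were 6, 13 and 2, against 9.39%, 25.9% and 9.20% of all genes. The replicate block over Control and 1XIMO alone was chosen after seeing the data and has few residual degrees of freedom. It gave 28 (33 at an unadjusted p under 0.05 by limma), against 40.2% of all genes. Neither changed a call of Cxcl12. Deviations of same-numbered arrays correlated at 0.029 to 0.150 between 6XIMO and the other groups, less than the 0.242 to 0.521 between Control and 1XIMO. The same number gave the highest correlation in 14 of 18 comparisons of an array with another group, a hint from the data and not from the design. Detection calls were not used here, so which dim values exceed background is unknown.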
